A study of Mus musculus with 19 samples.

Results

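Wide accessible regions were studied in the consensus ATAC-seq peak list of primary mouse bone marrow-derived macrophages. ATAC-seq uses the Tn5 transposase to insert sequencing adapters into open DNA, and a peak is a stretch where insertions pile up above background. A region was taken as wide when it lay on chromosomes 1 to 19 or X, spanned 800 bp or more and had a fold enrichment of at least 5. The regions were thus chosen by their measured width and fold. The rule gave 1332 of them among the 140383 peaks of the series, or 0.95% of the 140208 peaks on these chromosomes. Another 38 peaks were as wide but had a fold below 5 and were left out. The fold limit was set because wide peaks of low fold may be sequence present in many copies in the genome. Whether any region that was kept is such sequence was not tested.

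The cells carried Csf1r-Cre, a recombinase driven by the promoter of the macrophage growth factor receptor gene, and were either otherwise wild type or also Smarca5 lox/lox, labelled Smarca5-/-. Both genotypes received daily 4-hydroxytamoxifen while they differentiated, so the controls share the recombinase and the drug with the deleted cells. Each genotype was left untreated, given LPS at 10 ng/ml for 1 or 2 h, or treated with 100 U/ml of interferon beta for 1 or 2 h. This made 10 groups and 19 samples, 2 per group except for wild-type cells after 1 h of interferon beta, which had 1. The deposited list holds 1 set of values per peak for the whole series and names no sample. No comparison between genotypes or treatments was therefore possible, no replicate error applies and the depth of the samples is unknown. Since width and fold chose the regions and the other columns come from the same peak calls, all differences below are descriptions without a test. Intervals are 95% intervals that cover counting error only and treat peaks as independent. Where an SD is given, it is over the 20 chromosomes, which are not biological replicates.

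Most sites of open chromatin are short. Wider openings span several nucleosome positions and are known above all from promoters rich in CpG dinucleotides and from enhancers where many factors bind side by side. Smarca5 encodes an ATPase of the ISWI family, remodellers that slide nucleosomes and set their spacing, and LPS and interferon beta open inducible enhancers and promoters in macrophages. Genes at the regions were not analysed here, since the gene positions at hand belong to another genome build, and the labelled cell type was for the same reason not checked against marker loci.

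Wide regions were mostly only a little wider than the limit. Their median width was 899 bp (95% interval 892 to 906), 75.2% were narrower than 1000 bp, and 20 reached 1500 bp. All other peaks had a median width of 194 bp. Together the wide regions covered 1267 kb, or 3.63% of the bases under peaks on these chromosomes. At the limit itself, 11 regions measured exactly 800 bp and 6 peaks of sufficient fold were 1 bp narrower. Regions just inside were chr18:34463672-34464471 with a fold of 29.8, chr12:78908266-78909065 with a fold of 23.4 and chr12:101878929-101879728 with a fold of 22.9. Those just outside, 1 bp below the limit, were chr11:77970973-77971771 with a fold of 31.4, chr8:95564723-95565521 with 26.8 and chr9:36637475-36638273 with 25.1. The peaks named are only some of those at these widths. Other regions of exactly 800 bp had a lower fold than those named, so the examples do not stand for the fold at the limit. The counts on both sides show that the limit did not fall in a gap between widths.

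The authors' fold of a peak states its enrichment over local background. In wide regions its median was 19.04 (18.7 to 19.4), and in all other peaks 9.79. The middle 50% of wide regions lay between 15.4 and 23.3. When all peaks were ranked by fold and cut into 10 equal classes, 1096 wide regions, or 82.3%, stood in the top 3. Their share was largest not in class 10, the highest, where 2.44% of peaks were wide, but in class 9, where 3.29% were. Only 2 wide regions had a fold of 35 or more, against 863 peaks of any width. The medians followed the same turn: 18.6 for peaks from 400 to below 500 bp, 22.2 from 600 to below 700 bp, 20.5 for wide regions below 900 bp and 15.003 for those of 1200 bp or more. Across wide regions, fold and width had a Spearman's rho of -0.26, and across all other peaks 0.38. Both correlations are across peaks, which share the same libraries. Width and fold chose the regions, so the 2 correlations come from differently cut sets and are not compared further.

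**Figure D1:**
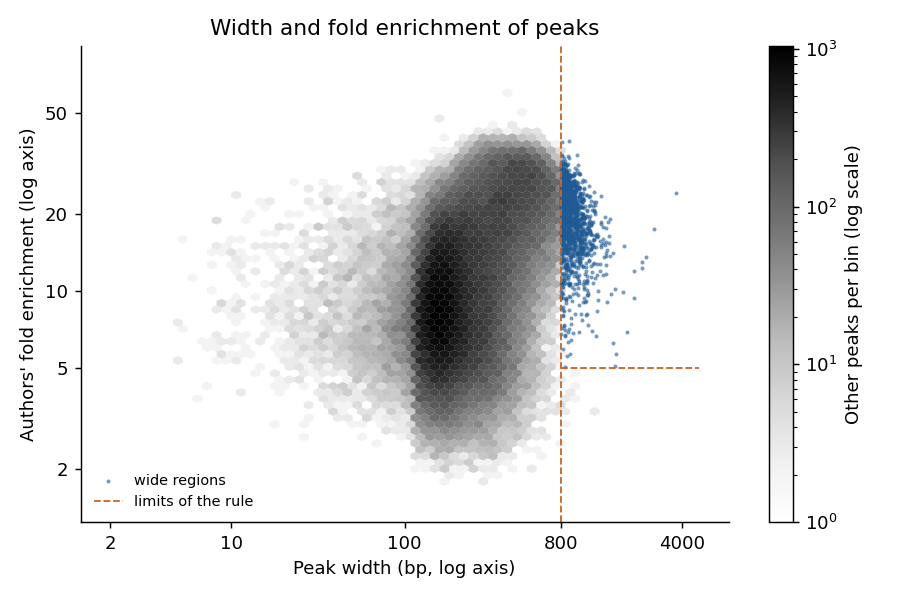
Width (x axis, bp, log axis) against the authors' fold enrichment (y axis, log axis) of peaks on chromosomes 1 to 19 and X. Grey shading counts all other peaks per bin, blue points are the 1332 wide regions and dashed lines are the limits of 800 bp and fold 5. The wide regions sit at a median fold of 19.04, and the widest of them lie lower than those near 800 bp.

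At the lower limit of fold, the regions just inside were chr1:7245283-7246124 at 5.05, chr16:97246386-97248030 at 5.07 and chr5:121365075-121365941 at 5.53. Just outside were chrX:111141301-111142146 at 4.91, chr16:55650689-55651648 at 4.87 and chr11:90170215-90171167 at 4.86. The chromosome 1 region also had the lowest −log10 q of all wide regions, 9.17. Peaks near this limit differed widely in how firmly they were called: the chromosome 16 region just inside had a −log10 q of 110.1.

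The −log10 q of wide regions was high even for their fold. Its median was 427, against 44.7 for all other peaks. To set it against fold, peaks were ranked into 100 classes of fold and each −log10 q was divided by the median of its class. The median of this ratio was 3.02 in wide regions and 0.994 in all other peaks, and 1296 wide regions, or 97.3%, were at or above 1. The median ratio rose with width on both sides of the limit. In other peaks it was 1.60 from 500 to below 600 bp and 1.94 from 600 to below 700 bp. It was 2.36 from 700 to below 800 bp, 2.62 in wide regions below 900 bp and 4.58 in those of 1200 bp or more. A high ratio was therefore not particular to regions above the limit. The ratio reached 20 in 44 of 138876 other peaks and in 7 of 1332 wide regions. The highest ratio of all, 1052, was that of chr1:24650696-24655221, a peak left out by the fold limit. Among wide regions the highest were chr2:22479202-22480199 with a ratio of 174 and a −log10 q of 16286, and chr2:98496585-98497656 with a ratio of 79.7 and a −log10 q of 27315. The second of these is followed by 2507966 bp without a peak on its higher side.

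The listed summit, which in a single peak call is the base with the highest signal, sat off centre in many wide regions. When each region was cut into 3 equal zones, the summit lay in the central zone in 46.8% of them (95% interval 44.1% to 49.5%) and in 64.7% of all other peaks. On the 20 chromosomes this share was 46.0% ± 5.20 (SD) for wide regions and 64.7% ± 0.789 for other peaks, and it was lower for wide regions on 20 of 20. Holding fold between 15 and 25 left 806 wide regions and 26367 other peaks, with 46.8% and 70.6%. Most of these other peaks were narrow, with a median width of 272 bp. At the same fold the share was 53.0% (95% interval 49.3% to 56.6%) from 700 to below 800 bp and 49.3% (45.3% to 53.2%) from 800 to below 1000 bp, so peaks on either side of the width limit were close. Within that range of fold, regions were also cut into 10 equal zones. In other peaks the central zones 5 and 6 were the fullest, with 24.6% and 24.0% of summits. In wide regions they held 12.03% and 13.8%, and the zones to either side held more, 15.8% in zone 4 and 15.6% in zone 7. Both directions were about equally frequent, since 50.2% of all summits of wide regions lay nearer the lower coordinate (95% interval 47.5% to 52.8%).

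**Figure D2:**
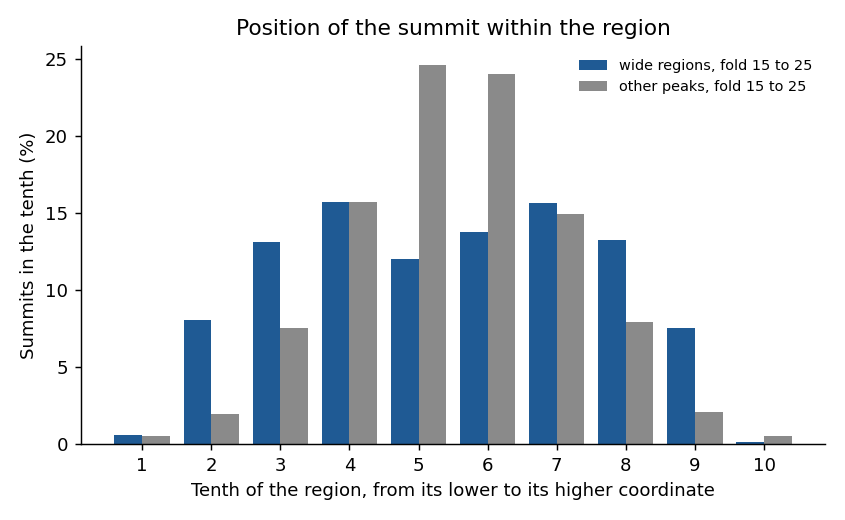
Share of summits (y axis, %) in each of 10 equal zones of a region (x axis, from its lower to its higher coordinate), for 806 wide regions in blue and 26367 other peaks in grey, all with a fold of 15 to 25. Other peaks have their summits around the middle, with 24.6% and 24.0% in the central zones, while wide regions hold 12.03% and 13.8% there and more in the zones on either side.

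The distance from the summit to the nearer edge had a median of 281 bp in wide regions below 900 bp, 303 bp from 900 to below 1000 bp and 320 bp from 1000 to below 1200 bp. It was 416 bp in the 83 regions of 1200 bp or more. The share with the summit in the central of 3 zones was 50.7%, 45.9%, 39.7% and 39.8% in the same classes. Narrower peaks had no steady trend: the share was 47.3% from 300 to below 400 bp and 62.8% from 600 to below 700 bp. How the authors placed the summit of a consensus peak is not stated by the sources used here.

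Wide regions had fewer peaks close by than other peaks taken as a whole. With fold not held, they had about as few as the peaks just below the width limit. Another peak within 5000 bp, edge to edge, was found for 709 wide regions, or 53.2% (95% interval 50.5% to 55.9%), and for 72.6% of all other peaks. The share was lower for wide regions on each of the 20 chromosomes, at 52.6% ± 7.95 (SD) against 72.1% ± 2.95. On X it was 30.3% against 62.3%. The nearest peak lay at a median distance of 4647 bp (95% interval 4306 to 4929) from a wide region and 2118 bp from other peaks. Peaks from 700 to below 800 bp had a neighbour within 5000 bp in 55.0% (95% interval 52.3% to 57.6%), at a median distance of 4355 bp. Their median fold, 21.3, was higher than that of wide regions. At a fold of 15 to 25 the share was 60.6% (56.9% to 64.1%) from 700 to below 800 bp. It was 52.2% (48.2% to 56.1%) from 800 to below 1000 bp and 39.3% (32.6% to 46.3%) at 1000 bp or more. The fall with width began below the limit, from 78.0% at 400 to below 500 bp. A neighbour within 5000 bp stood on both sides of 159 wide regions, on 1 side of 550 and on neither side of 623. No wide region touched another peak, and a count of 0 among 1332, taken as at most 3, allows a share of up to 0.225%. Of all other peaks 2.38% touched another, but so did 0 of the 1370 peaks from 700 to below 800 bp. Within 20000 bp nearly every peak had a neighbour, 96.4% of wide regions and 95.8% of other peaks.

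The distance at which neighbours returned was sharply set. Within 1000 bp of the edges there were 0.145 peaks per kb around wide regions (95% interval 0.130 to 0.160) and 0.214 around all other peaks. At 1000 to 5000 bp from the edges there were 0.0732 peaks per kb around wide regions (95% interval 0.0682 to 0.0785) and 0.129 around all other peaks, a ratio of 0.568. From 5000 to 10000 bp the values were 0.151 (95% interval 0.144 to 0.157) and 0.145, a ratio of 1.04. The near value was lower for wide regions on 20 of 20 chromosomes, while the far value was lower on 8 and higher on 12. In steps of 500 bp, the density around wide regions was 0.0653 peaks per kb at 4000 to 4500 bp, 0.114 at 4500 to 5000 bp and 0.140 at 5000 to 5500 bp. Beyond that point the flanks of wide regions and of other peaks were about equally filled.

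**Figure D3:**
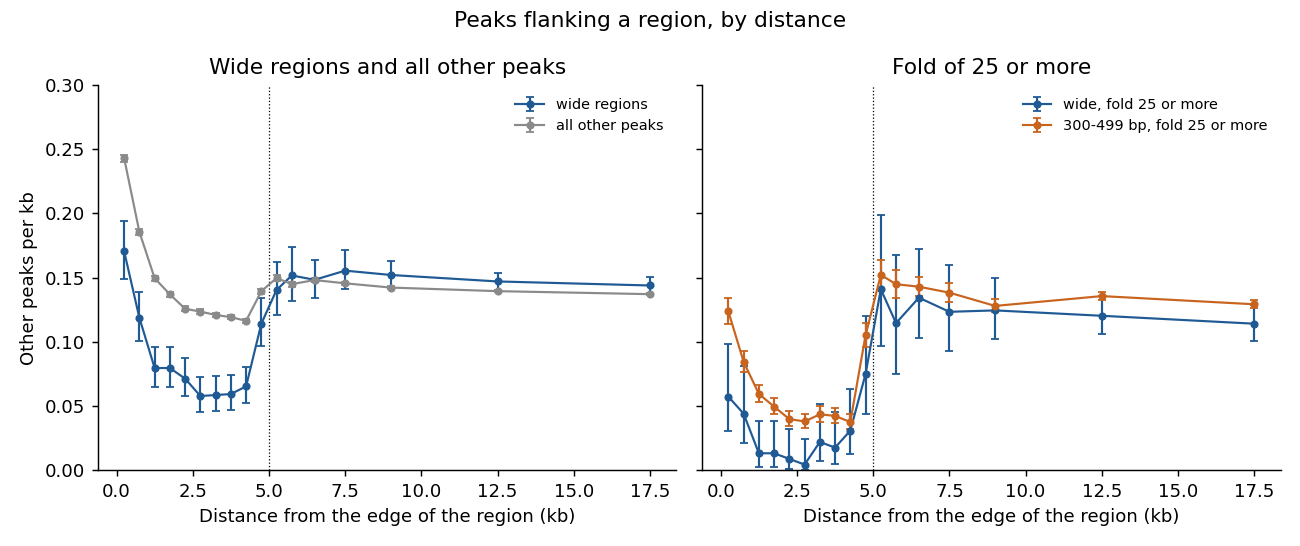
Other peaks per kb (y axis) by distance from the edge of a region (x axis, kb), with 95% Poisson intervals and a dotted line at 5 kb. The left panel shows the 1332 wide regions in blue and all other peaks in grey. The right panel shows the 227 wide regions with a fold of 25 or more in blue and the 4846 peaks of 300 to below 500 bp with such a fold in orange. Each curve drops away from the region and returns near 5 kb, and the drop is deepest for wide regions of high fold.

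The thinning went with fold and, from 400 bp upwards at a fold of 15 to 25, also with width. Among wide regions, the share with a peak within 5000 bp was 88.4% at a fold of 5 to 10 (69 regions), 83.5% at 10 to 15 (230 regions), 59.4% at 15 to 20 (446 regions), 36.4% at 20 to 25 (360 regions) and 26.4% at 25 or more (227 regions). The peaks per kb at 1000 to 5000 bp were 0.234, 0.134, 0.0698, 0.0396 and 0.0231 in these classes. At a fold of 5 to 10, wide regions were therefore set among more peaks than the 0.129 per kb of all other peaks, and at 25 or more among few. Peaks of 300 to below 500 bp had 0.149 peaks per kb at a fold of 5 to 10 and 0.0519 at 25 or more. At a fold of 15 to 25, the density first rose with width. It was 0.0691 around peaks below 200 bp and 0.0959 from 200 to below 300 bp. It reached 0.109 from 300 to below 400 bp and 0.116 from 400 to below 500 bp. Above that it fell, to 0.109 from 500 to below 600 bp and 0.0948 from 600 to below 700 bp. It was 0.0727 from 700 to below 800 bp, 0.0593 from 800 to below 1000 bp and 0.0465 at 1000 bp or more. The step near 5 kb was also present around the narrower peaks of high fold, at 0.0376 peaks per kb from 4000 to 4500 bp and 0.152 from 5000 to 5500 bp.

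The neighbours inside that distance were also weaker. In the 385 pairs of a wide region and a neighbour within 1000 bp, the neighbour had a median fold of 7.35 (95% interval 6.65 to 8.12). There 10.9% reached a fold of 15. In the 780 pairs at 1000 to 5000 bp, the neighbour had a median fold of only 5.53. The 95% interval was 5.21 to 5.91, and 5.64% of these neighbours reached a fold of 15. In the 2008 pairs at 5000 to 10000 bp the median was 9.44, with a 95% interval of 9.10 to 9.73. There 25.2% reached 15, close to the 26.5% of all other peaks. A peak near several wide regions counts once for each, and the intervals treat pairs as independent. Around peaks of 300 to below 500 bp with a fold of 15 to 25, the medians were 10.4 within 1000 bp, 6.91 at 1000 to 5000 bp and 9.76 at 5000 to 10000 bp. MACS2, which is named in the submitters' processing notes, can take the background of a position from reads in the stretch around it, so that a strong region may enter the background of its flanks. Its settings are not stated by the sources used here, and the part of this step in the thinning was not tested.

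Wide regions made up an uneven share of the peaks of each chromosome. The share was 0.951% ± 0.189 (SD) over the 20 chromosomes. It was highest on chromosome 7, where 112 of 7921 peaks or 1.41% were wide, and on chromosome 11, where 130 of 10090 or 1.29% were. Chromosome 16 had the lowest share, 39 of 5264 peaks or 0.741%, with chromosomes 2 and 1 next at 0.750% and 0.758%. On X, 33 of 3008 peaks or 1.10% were wide, a higher share than on 14 of the 19 autosomes. In number per length X was nevertheless the poorest, with 0.203 wide regions per Mb against 0.358 to 1.09 on the autosomes. The median fold of wide regions ranged only from 17.5 on chromosome 19 to 21.4 on chromosome 12.

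**Figure D4:**
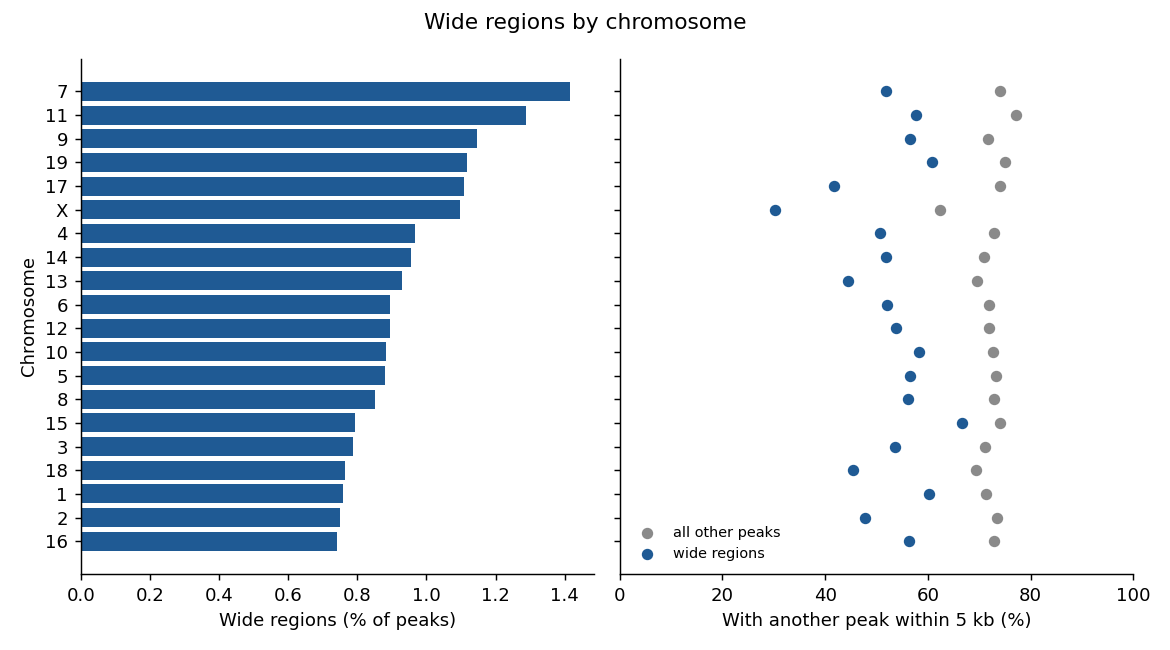
Left, wide regions as a share of the peaks of each chromosome (x axis, %), in order of that share, from 0.741% on chromosome 16 to 1.41% on chromosome 7. Right, share of wide regions (blue) and of all other peaks (grey) with another peak within 5 kb (x axis, %), in which the blue point lies to the left on every chromosome.

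Most wide regions stood far from each other. The median distance from a wide region to the next was 661448 bp, and 1088 of them, or 81.7%, had no other within 50000 bp. The remaining 244 formed 109 runs, of which 92 were pairs. The longest run, 8 wide regions in 38146 bp at chr9:3000068-3038213, is the first group of peaks on chromosome 9 and held 12 other peaks. Its wide regions measured 823 to 2744 bp with folds of 8.02 to 17.5. Cut into 5 equal zones, 4 of the 8 had the summit in an outer zone, compared with 16.7% of all wide regions. The next peak after this run is 220603 bp away.

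A run of 5 at chr13:74610621-74712682 looked different, with only 2 other peaks in 102062 bp. The narrower 4 were alike: chr13:74610621-74611541 (921 bp, fold 25.1), chr13:74641900-74642723 (824 bp, fold 25.3), chr13:74670443-74671319 (877 bp, fold 23.8) and chr13:74711818-74712682 (865 bp, fold 24.0), with summits 261, 210, 218 and 258 bp from the start. The other, chr13:74676833-74678671, was 1839 bp wide with a fold of 15.04. Runs of 4 lay at chr11:69728626-69805530, with folds of 19.4 to 25.2 and 5 other peaks, and at chr13:21900122-21971975, with folds of 11.8 to 18.6 and 10 other peaks. A run of 3 over 92213 bp at chr19:37951421-38043633 was the richest of these in other peaks, with 18.

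The 10 widest regions measured 1824 to 3683 bp with folds of 6.91 to 24.4, and 5 of them belonged to the run at the start of chromosome 9. The widest, chr14:3050297-3053979, was the first peak of chromosome 14, with a fold of 24.4, a −log10 q of 2984 and 240174 bp to the next peak, the greatest distance to a nearest neighbour among wide regions. Its summit lay 578 bp from the start. Others were chr17:13770989-13773336 (2348 bp, fold 12.3), chr9:124195171-124197083 (1913 bp, fold 6.91) and chr1:171329608-171331431 (1824 bp, fold 9.87).

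The 10 regions of highest fold were narrower, at 805 to 988 bp with folds of 32.3 to 39.0, and 9 of them had no peak within 5000 bp. The highest was chr8:20143484-20144366 with 39.0. Chromosome 17 held 5 of the 10, of which chr17:21642980-21643787 (fold 38.7), chr17:21868992-21869796 (33.8), chr17:21898307-21899120 (34.3) and chr17:22444146-22444981 (33.4) were consecutive wide regions. Their summits were at 498, 465, 502 and 572 bp from the start, and the nearest peak was at least 15310 bp from each. The opposite surroundings were seen at chr9:3030848-3032953 and chr9:3023477-3025938, with 11 and 10 peaks within 5000 bp. Outside that run, the most were 8 at chr5:3393706-3394715 (fold 8.84), 7 at chr17:26727016-26727936 (fold 10.4) and 6 at chr2:164753062-164753946 (fold 8.44). All wide regions had a mean of 0.875 peaks within 5000 bp, and other peaks 1.46.

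The authors' scores are mostly not whole, as a mean of whole numbers would be. The smallest whole number that turned a score into a whole number, within a tolerance of 1e-06 per unit of that number, was taken as its multiplier. A mean of 20 whole numbers whose sum has no preferred remainder needs the multipliers 20, 10, 5, 4, 2 and 1 in 40%, 20%, 20%, 10%, 5% and 5% of cases. In wide regions these shares were 38.4% (95% interval 35.8% to 41.0%), 21.4%, 19.5%, 10.7%, 4.28% and 5.18%. In all other peaks they were 14.4%, 9.54%, 9.58%, 11.5%, 13.3% and 17.9%. For these 6 multipliers, each interval of the wide regions covers the value of such a mean. A total of 1325 wide regions, or 99.5%, had one of these multipliers, as did 76.2% of other peaks. Means of fewer whole numbers, such as 10 or 4, also give some of these multipliers. Having one of them therefore does not show that 20 values were averaged. At a fold of 15 to 25 the counts were 806 of 806 wide regions and 85.6% of other peaks. Peaks from 500 to below 800 bp with a fold of at least 5 were close to the wide regions, with 37.9% at multiplier 20 and 98.5% at one of the 6. The series has 19 samples, so 20 is not their number. Which samples or other values stand behind a score is not stated by the list.

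**Figure D5:**
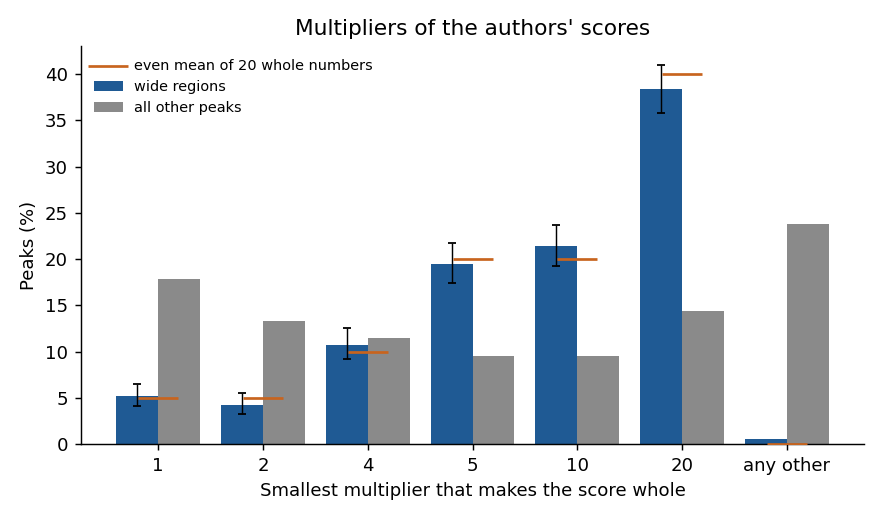
Share of peaks (y axis, %) by the smallest multiplier that makes the authors' score whole (x axis), for wide regions in blue with 95% Wilson intervals and for all other peaks in grey. Orange lines give the shares of an even mean of 20 whole numbers, which the blue bars follow, from 5.18% at multiplier 1 to 38.4% at multiplier 20.

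The 7 wide regions with another multiplier cannot be a mean of 20 whole numbers. Their folds were low, from 5.07 to 11.5, and 6 of them were among the 69 wide regions with a fold below 10. Their widths ran from 816 to 1648 bp, with a median of 1274 bp. The widest were chr10:18874371-18876018 (1648 bp, fold 5.63), chr16:97246386-97248030 (1645 bp, fold 5.07) and chr18:60525906-60527506 (1601 bp, fold 6.24). The others were chr16:84514669-84515942 (1274 bp, fold 6.67), chr3:142344127-142345326 (1200 bp, fold 6.95), chr5:91038620-91039609 (990 bp, fold 11.5) and chrX:141679856-141680671 (816 bp, fold 8.0). A peak within 5000 bp was present for 5 of the 7. Their −log10 q included 203 for the chromosome 10 region and 43.8 for the X region.

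The 38 peaks of 800 bp or more that the fold limit left out had surroundings like those of the 69 wide regions with a fold of 5 to 10. Their median fold was 3.54, and 24 of them, or 63.2% (95% interval 47.3% to 76.6%), had another peak within 1000 bp, against 53.6% (42.0% to 64.9%) of these 69. Within 5000 bp the shares were 86.8% and 88.4%. Their multiplier was 1 or 2 in 24 of 38 and 20 in only 3. The widest were chr1:24650696-24655221 (4526 bp, fold 3.59, −log10 q 15623), chr17:40153925-40157580 (3656 bp, fold 2.89, −log10 q 641) and chr16:10598054-10599691 (1638 bp, fold 4.44, −log10 q 218).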

How the data were processed

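The build mm39 and the tools deepTools 3.5.1, MACS2 2.2.7.1, Picard 2.27.4 and STAR 2.7.9a are named per the submitters' processing notes. What each did, any read shifting, the peak thresholds and how samples were combined are not stated by the sources used here. The deposited list gives each peak a score, a fold (a ratio to local background) and a −log10 q, all the authors' values, and a summit offset. These served to describe and rank peaks inside that list and nothing else. Starts were read as counted from 1. Gaps are the bases between neighbouring edges. Shares have Wilson intervals, medians order-statistic intervals and densities exact Poisson intervals. The calculation of gaps, neighbour counts and multipliers was tested on simulated data. Regions named were the 10 widest, the 10 of highest fold, the 5 with most neighbours, 5 runs, 3 on either side of each limit and the extremes of each value. The regions with another multiplier and the widest left out were added after their values were seen. Members and rules were chosen with earlier results of these data known. Planned results on gene starts and promoter sequence were not run, because the gene and promoter tables belong to build GRCm38. All values were computed in Python 3.11.15 with scipy 1.17.1, pandas 2.3.3 and numpy 2.4.6 and drawn with matplotlib 3.10.9.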

Additional observations from a re-analysis of the deposited data

Results flagged for a closer look

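Sequences outside the assembled chromosomes entered none of the comparisons above but held 11 regions of 800 bp or more with a fold of at least 5, among 112 peaks or 9.82%. On chromosomes 1 to 19 and X the share was 0.95%. They drew attention as signal outside the data compared, and the difference in share was not tested. Un_JH584304v1 held 8 of them, Un_MU069435v1 held 2 and Un_GL456392v1 held 1. Chromosome Y had none among 63 peaks. On Un_JH584304v1, 3 regions measured exactly 944 bp, at 77744 to 78687, 81250 to 82193 and 102992 to 103935, and the first and last of these had the same summit offset of 885 bp.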

How the results depend on the processing

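Of 42 alternative values over 5 results, 29 stayed within the 95% interval of the value reported, or for the number of regions within 1.5 times, and 13 moved. All describe the wide regions alone. Except at other distances to a neighbour, whether a difference from other peaks keeps its direction was not tried. Of the 42, 23 were chosen after seeing the data, among them all for the density of neighbours. With a minimum width of 600 bp there were 5245 regions with a median fold of 21.2, 57.2% of summits in the central of 3 zones, 57.7% with a peak within 5000 bp and 0.0798 peaks per kb at 1000 to 5000 bp. With 1000 bp there were 330 regions, a median fold of 16.3 and 39.7% of summits in the central of 3 zones. Neighbours within 1000 bp were found for 24.6% and within 20000 bp for 96.4% of wide regions. For all other peaks the shares were 32.8% and 95.8%, so wide regions had the lower share within 1000 bp but not within 20000 bp. A minimum fold of 10 gave 0.0644 peaks per kb. When peaks below the median −log10 q were dropped, 39.1% had a peak within 5000 bp and there were 0.0439 peaks per kb, as fewer peaks were counted. Without the run at the start of chromosome 9, the widest region and the 2 of highest −log10 q for their fold, all 5 results stayed in range. Merged peaks have no summit of their own, so their summits were not placed. Alternatives for gene starts and promoter sequence were not run. Each peak has 1 set of values, and no paired analysis was possible because no value belongs to a sample. A missing neighbour may lie below what the depth, which is unknown, could show.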
